A study of Mus musculus with 54 samples.

Results

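The comparison asked whether 2 mouse models of medulloblastoma, the malignant tumour of the cerebellum, changed their RNA in the same way 5 h after radiation. It used 12 of the 18 libraries of the series, made from 30 of its 54 deposited samples. Cerebellar tumours came from Ptc het mice, for which the labels give the strain C57BL/6, and from SmoA1 mice, whose strain is given as SmoA1 homo. In each model 3 tumour libraries followed 1 Gy and 3 followed sham treatment, all collected after 5 h. The sham libraries of Ptc are numbered 1, 2 and 3 and those of SmoA1 1, 2 and 4, while the 1 Gy libraries are numbered 1, 2 and 3 in both models. Ages, sexes and the promoter of the transgene are not given in the sources used here. The labels do not say that the numbered libraries came from separate mice, so the p-values measure the spread between these libraries, which may be technical. Sex-linked RNA, given below, shows different mice within the irradiated Ptc group and within both SmoA1 groups, but cannot show this for Ptc sham.

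Both models grow tumours through Hedgehog signalling in granule neuron progenitors. Ptch1 is the Hedgehog receptor that keeps Smoothened, encoded by Smo, inactive, and Ptc het mice carry an inactive Ptch1 allele. SmoA1 is a mutant Smoothened that signals without the ligand. Ionising radiation breaks DNA, and the breaks stabilise the transcription factor p53, encoded by Trp53, which switches on cell cycle inhibitors such as Cdkn1a (p21) and genes of cell death. Radiation also activates kinases that induce immediate early genes such as Fos, and it activates NF-kappa-B, the transcription factor behind many cytokines and adhesion molecules.

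The libraries of the 2 models differ in kind, and the kind of library and the model cannot be told apart. Reads assigned to genes numbered 34124031 to 51330146 in the 6 Ptc libraries, with 94.4% to 95.04% of stranded counts on one strand. They numbered 701217 to 842997 in the 6 SmoA1 libraries, with 50.4% to 50.7% on the larger strand, 47.9% to 76.1% of reads unmapped and 70.8% to 75.01% of uniquely mapped reads over no annotated exon. Among genes with a density in Ptc of 0.1 to 0.3 CPM (read counts scaled by edgeR to library size) per kb of exon, the median SmoA1 density was 5.95 CPM per kb. Among genes at 100 to 300 CPM per kb in Ptc it was only 18.3 CPM per kb. Protein-coding genes under 0.01 CPM per kb in Ptc, 4673 in number, had a SmoA1 median of 0. Levels of the genes detected in Ptc therefore covered a narrow range in SmoA1, and the changes are compared below by direction and rank as well as by fold. CPM values were scaled within each model and are not comparable between models. The Hedgehog target Gli1 lay between 42.2 and 255 CPM in Ptc and between 48.3 and 111 CPM in SmoA1. Its lowest Ptc value was that of sham replicate 2. Ptch1 lay between 121 and 197 CPM in Ptc and between 165 and 247 CPM in SmoA1. With no normal tissue beside them, and on the narrow SmoA1 scale, these levels cannot show that the tissue was tumour.

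**Figure D1:**
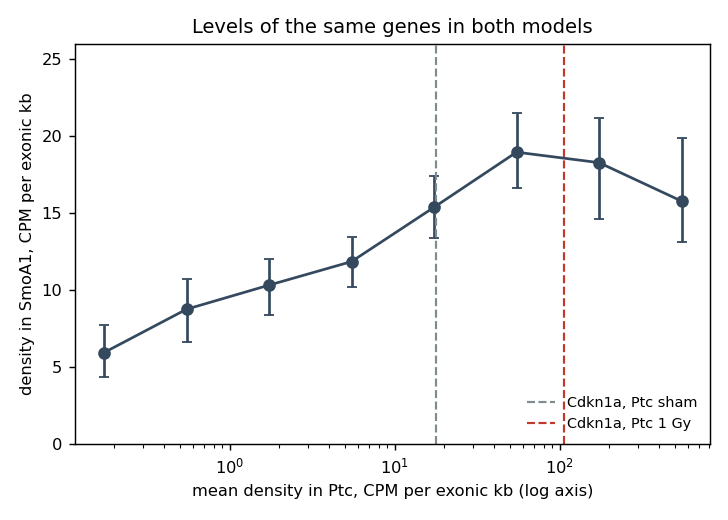
Median density in SmoA1 (CPM per kb of exon, points) of genes grouped by their mean density in Ptc (log axis), with bars from the lower to the upper quartile of the genes. Only genes of at least 0.1 CPM per kb in Ptc are plotted, and their medians rise from 5.95 in the lowest group to 18.97 and then fall to 15.79, and the dashed lines mark Cdkn1a in Ptc at 17.7 in sham and 106 after 1 Gy.

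Some libraries stood apart from their own group. Ptc sham replicate 2 had a mean of 3.49 on the log2(CPM + 0.5) scale over 40 genes of the G2/M phase and mitosis, against 6.68 and 6.33 in the other sham libraries. The same library had a mean of 8.72 over 12 markers of Purkinje cells, against 3.94 and 6.798. Ptc 1 Gy replicate 2 was highest in markers of microglia and of endothelial cells and pericytes, at 5.55 and 6.30, against at most 4.73 and 4.61 in the other Ptc libraries. Summed counts of Y-linked genes were high in Ptc 1 Gy replicate 1 (277 CPM), SmoA1 sham replicate 2 (374 CPM) and SmoA1 1 Gy replicate 1 (466 CPM), and at most 38.6 CPM in the other libraries. The sex-linked gene Xist was at 0.50 CPM in Ptc 1 Gy replicate 1 and between 94.8 and 1676 CPM in the other Ptc libraries. In SmoA1, Xist was at 114 CPM in sham replicate 2, against 212.5 and 257.6 CPM in the other sham libraries. It was at 37.7 CPM in SmoA1 1 Gy replicate 1, against 235 and 193 CPM in the other irradiated libraries. The irradiated Ptc libraries and both SmoA1 groups were thus of mixed sex.

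The change after 1 Gy differed between the models for 1 gene, Cdkn1a, of 16327 tested in both (0.00612%) by the edgeR quasi-likelihood test of the interaction at a Benjamini-Hochberg adjusted p under 0.05. By the DESeq2 Wald test of the same term, 25 genes (0.153%) changed more towards higher levels in Ptc and 34 (0.208%) more towards lower levels. At an unadjusted p under 0.05, edgeR gave 530 genes (3.25%) higher and 589 (3.61%) lower in Ptc, relative to SmoA1. Within SmoA1, edgeR called 331 genes that rose (1.98% of 16690) and 32 that fell (0.192%). Within Ptc, edgeR called 0 of 19571 genes (0%), although 1421 had an unadjusted p under 0.05. DESeq2 called 209 genes that rose in Ptc (1.07%) and 109 that fell (0.557%), and those calls are named as DESeq2 calls below. In SmoA1 DESeq2 called 225 genes. The plan set edgeR for calls in both models, with DESeq2 as an alternative. Numbers of DESeq2 calls in Ptc and edgeR calls in SmoA1 come from different tests, so their sizes do not compare the models. The DESeq2 count in Ptc rested on single libraries, at 104 genes without 1 Gy replicate 2, 109 without sham replicate 3 and 190 without sham replicate 2, against 656 without sham replicate 1 and 743 without 1 Gy replicate 1. Of the Ptc calls named below, those of Cdkn1a, Tnfrsf10b, Pmaip1, Fos, Fosb, Gem, Npas4, Atf3, Nr4a1, Junb, Phlda1, Il6, Il1a, Il1b, Lif and Ccl2 passed without each of the 6 Ptc libraries in turn, and the others named as DESeq2 calls in Ptc were lost without at least 1 of them. Over all genes tested in both, the median log2 fold change was -0.0037 in Ptc and -0.025 in SmoA1, with median standard errors of 0.43 and 0.22.

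The 2 changes shared direction only in part. Over all genes tested in both models, 52.6% had the same sign in both, and the Spearman correlation of the changes across genes was 0.065, a description of genes that are not replicates. Of 284 genes called in SmoA1 and tested in both, 56.0% had the same sign in Ptc, with an exact (Clopper-Pearson) 95% interval from 50% to 61.9% that covers counting of genes only. Of the 178 genes that rose in Ptc by DESeq2 and were tested in both, 165 (92.7%) were also positive in SmoA1, at a median percentile of 91.8 among the SmoA1 changes. Over all genes tested in both models, 46.45% were positive in SmoA1. Of the 90 that fell in Ptc by DESeq2, 33 (36.7%) were negative in SmoA1, and their median percentile there was 73. Both measures turned on Ptc sham replicate 2, since without it 75.4% of the SmoA1 calls had the same sign and the correlation was 0.31.

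In total 40 genes were called both in SmoA1 by edgeR and in Ptc by DESeq2, of which 31 had the same sign and 9 the opposite sign. By the separation of libraries, all 3 irradiated libraries lay above all 3 sham libraries for 1174 genes in Ptc (7.19%) and 1477 in SmoA1 (9.05%), and below them for 988 (6.05%) and 1468 (8.99%). They lay above in both models for 216 genes (1.32%) and below in both for 146 (0.894%). They lay above in Ptc and below in SmoA1 for 46 genes (0.282%), and the other way round for 27 (0.165%).

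**Figure D2:**
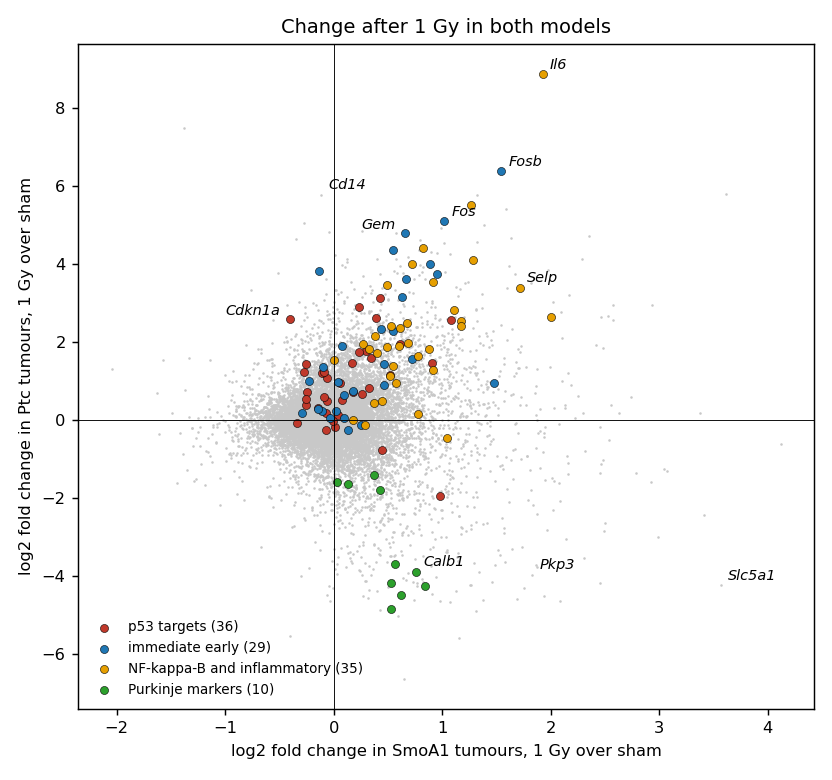
Log2 fold change after 1 Gy over sham in SmoA1 (x axis) against Ptc (y axis) for the 16327 genes tested in both models, each a grey point, with members of 4 gene lists coloured. Members of the NF-kappa-B and immediate early lists lie mostly at positive values on both axes, Cdkn1a lies at 2.58 in Ptc and -0.40 in SmoA1, and the Purkinje markers lie below 0 in Ptc and above 0 in SmoA1. The height of Il6 rests on 2 reads in the Ptc sham group.

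Cdkn1a encodes p21, which inhibits cyclin-dependent kinases and stops the cell cycle after DNA damage (ENSMUSG00000023067, chromosome 17, 29090976 to 29100727 on the plus strand of GRCm38). In Ptc it measured 68.2, 64.2 and 56.2 CPM after sham and 433, 428 and 270 CPM after 1 Gy. In SmoA1 it measured 54.3, 54.0 and 71.2 CPM after sham and 45.3, 51.1 and 38.6 CPM after 1 Gy, from 26 to 52 reads a library. The irradiated libraries thus lay wholly above sham in Ptc and wholly below sham in SmoA1. The Ptc change was 6.00-fold (log2 2.58, SE 0.28), at percentile 98.9 of all changes in Ptc, with a DESeq2 adjusted p of 1.24e-14 and an edgeR adjusted p of 0.53. The SmoA1 log2 change was -0.40 (SE 0.21, edgeR adjusted p = 0.40), at percentile 7.996.

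The difference between the 2 changes of Cdkn1a was 2.98 on the log2 scale (SE 0.32; edgeR adjusted p = 0.020, DESeq2 adjusted p = 1.14e-11). It lay between 2.72 and 3.18 under all alternatives, but edgeR no longer called it without Ptc sham replicate 2 or 3 (adjusted p = 0.053 and 0.14) or without any 1 of the 6 SmoA1 libraries (adjusted p from 0.089 to 0.17), nor without the 3 libraries high in Y-linked genes (adjusted p = 0.38), nor with the replicate number as a block (adjusted p = 0.96). The density of Cdkn1a in Ptc went from 17.7 to 106 CPM per kb. Genes of these densities in Ptc had median SmoA1 densities of 15.4 and 18.3 CPM per kb, and Cdkn1a itself had 14.8. How much of the difference in fold comes from this narrow scale was not tested, and the opposite direction in SmoA1 did not pass its own test.

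The sequence before the start of Cdkn1a is shown because it is a textbook promoter of p53 response. The 250 bases before 1 of the 2 starts in the RefSeq table (GRCm38.p6, chr17:29090729-29090978, plus strand) hold 2 matches to the p53 half-site, in capitals, which begin 73 and 51 bases before the start and overlap none of the other 4 motifs searched.
Cdkn1a: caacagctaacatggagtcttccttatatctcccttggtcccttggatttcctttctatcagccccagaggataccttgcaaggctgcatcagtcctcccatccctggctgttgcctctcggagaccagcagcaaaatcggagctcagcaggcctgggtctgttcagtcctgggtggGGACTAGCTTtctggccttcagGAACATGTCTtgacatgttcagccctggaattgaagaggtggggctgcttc
Both strands were searched. The half-site was found in 9 of the 28 p53 target genes with a window (32.1%) and in 7.2% of the 11752 tested genes with one. A match describes the letters and does not show binding.

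Target genes of p53 ranked high in Ptc and near the middle in SmoA1. Of 37 listed genes 36 were tested, and 9 rose in Ptc by DESeq2 (1.07% of all genes) while 1 rose in SmoA1 by edgeR (1.98% of all genes). Their median log2 change was 0.88 in Ptc and 0.05 in SmoA1, at median percentiles of 89.0 and 60.2 of all genes. All irradiated libraries lay above sham for 16 of the 36 in Ptc and for 8 in SmoA1, against 7.19% and 9.05% of all genes, and 4 lay wholly below in SmoA1, against 8.99%. Of the 36, 13 were positive in Ptc and negative in SmoA1, and 3 the other way round. At an unadjusted interaction p under 0.05, 11 were higher in Ptc (3.25% of all genes) and 2, Ddb2 and Trp73, were lower (3.61%). The median in Ptc lay between 0.73 and 1.14 without each Ptc library in turn, and the number that rose by DESeq2 was 3 without sham replicate 3 and 4 without 1 Gy replicate 2 or 3.

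Among these targets, Tnfrsf10b, a death receptor that binds TRAIL, measured 1.94, 1.94 and 1.85 CPM in Ptc sham and 5.30, 18.3 and 11.5 CPM after 1 Gy. In SmoA1 it measured 42.2, 42.4 and 58.9 CPM after sham and 64.9, 60.1 and 63.9 CPM after 1 Gy. Neither model's groups overlapped, and Tnfrsf10b rose in Ptc by DESeq2 (log2 2.61, adjusted p = 0.00029) with a difference between models of 2.2 (DESeq2 adjusted p = 0.0497, edgeR adjusted p = 0.70). Ei24, another p53-induced gene of cell death, went from 91.7, 105 and 94.8 CPM to 140, 183 and 154 CPM in Ptc and from 90.5, 82.2 and 91.8 CPM to 70.9, 79.2 and 71.3 CPM in SmoA1. As for Cdkn1a, all irradiated libraries of Ei24 lay above sham in Ptc and below in SmoA1, and the difference of 0.95 passed by DESeq2 (adjusted p = 0.040) and not by edgeR (adjusted p = 0.70).

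The following p53 targets were chosen after their values were seen, as members called in 1 of the models. Pmaip1 (Noxa), a BH3-only killer protein, rose in Ptc by DESeq2 by 3.12 on the log2 scale, Gdf15, a secreted stress factor, by 2.88, Phlda3, an inhibitor of Akt, by 1.96, Ccng1 (cyclin G1) by 1.77 and the exonuclease Aen by 1.47. Their SmoA1 log2 changes lay between 0.17 for Aen and 0.61 for Phlda3, and none passed by edgeR. Plk2, a kinase of the stress response, was the target that rose in SmoA1 (log2 0.90, edgeR adjusted p = 0.016), from 40.7, 54.0 and 38.4 CPM to 72.4, 85.6 and 92.1 CPM. Its Ptc libraries were also separate, at 11.1, 32.01 and 13.2 CPM after sham and 42.7, 76.1 and 37.2 CPM after 1 Gy, without a DESeq2 call (adjusted p = 0.17). Mdm2, which marks p53 for destruction, and Eda2r, a receptor gene induced by p53, passed in neither model. Mdm2 had log2 changes of 0.30 in Ptc and -0.14 in SmoA1, and Eda2r 1.07 and -0.06, while Trp53 itself had 0.04 and -0.03. Both Ptc values rested on sham replicate 2, without which Eda2r had 0.53 and Trp53 -0.41.

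**Figure D3:**
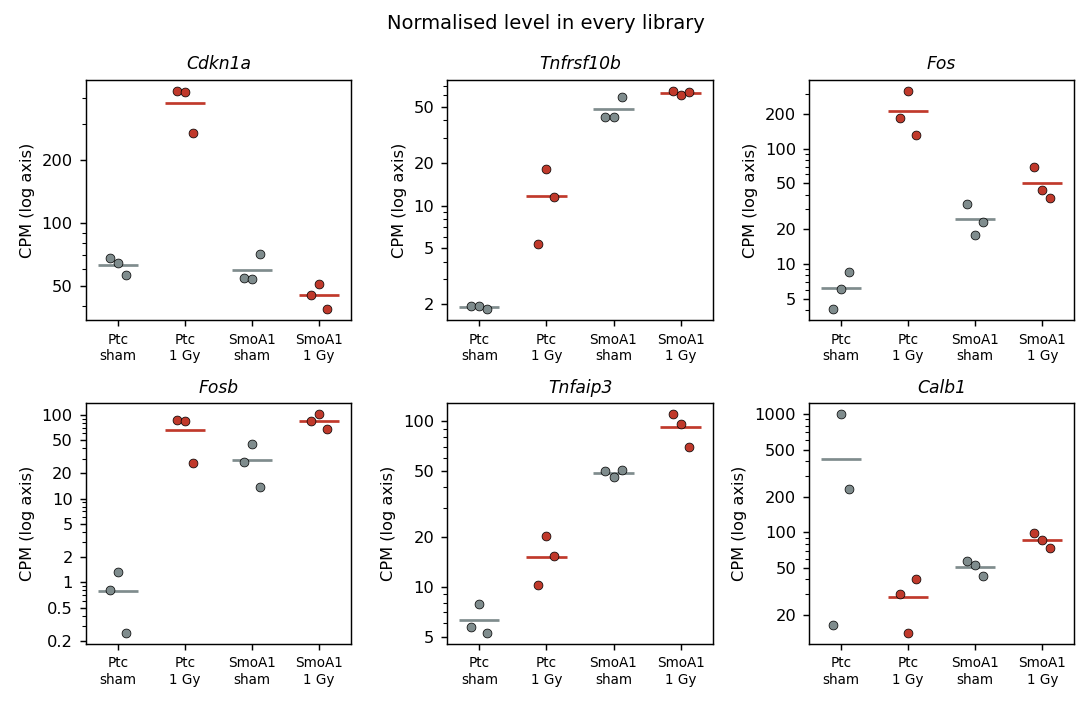
CPM (log axis) of 6 genes in each library, grey after sham and red after 1 Gy, with a line at the group mean. Cdkn1a lies between 270 and 433 CPM in irradiated Ptc and at most at 51.1 CPM in irradiated SmoA1, while Fos, Fosb and Tnfaip3 are higher after 1 Gy in both models and Calb1 is spread from 16.6 to 995 CPM over the Ptc sham libraries.

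Immediate early genes, whose transcription starts within minutes of a stimulus, ranked high in both models. All 29 genes of the list found in the files were tested, and 10 rose in Ptc by DESeq2 (1.07% of all genes) and 4 in SmoA1 by edgeR (1.98%), with 3 in both. Their median log2 change was 1.37 in Ptc and 0.25 in SmoA1, at median percentiles of 94.1 and 79.3. The irradiated libraries lay wholly above sham for 12 of the 29 in each model and for 8 in both, against 7.19% of all genes in Ptc, 9.05% in SmoA1 and 1.32% in both. Without Ptc 1 Gy replicate 2, which was also highest in microglial and endothelial markers, the Ptc median was 0.59, with 8 of the genes called by DESeq2.

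Fos, a subunit of the AP-1 transcription factor, measured 4.06, 6.06 and 8.51 CPM in Ptc sham and 187, 319 and 133 CPM after 1 Gy. In SmoA1 it measured 33.2, 17.98 and 23.3 CPM after sham and 69.4, 43.5 and 37.1 CPM after 1 Gy. Both models were separate and in the same direction, and the rank was similar, at percentiles 99.9 and 97.3. The log2 change was 5.10 in Ptc (SE 0.49, DESeq2 adjusted p = 1.75e-21) and 1.02 in SmoA1 (SE 0.30, edgeR adjusted p = 0.084). The difference of 4.07 (SE 0.58) passed by DESeq2 (adjusted p = 1.63e-07) and not by edgeR (adjusted p = 0.18).

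The window before Fos is shown because it carries a classical response element for cyclic AMP and calcium signals. It covers 250 bases (RefSeq, GRCm38.p6, chr12:85473640-85473889, plus strand) with 2 matches to the half-site TGACG in capitals, 129 and 66 bases before the start, searched on both strands and overlapping no other motif searched.
Fos: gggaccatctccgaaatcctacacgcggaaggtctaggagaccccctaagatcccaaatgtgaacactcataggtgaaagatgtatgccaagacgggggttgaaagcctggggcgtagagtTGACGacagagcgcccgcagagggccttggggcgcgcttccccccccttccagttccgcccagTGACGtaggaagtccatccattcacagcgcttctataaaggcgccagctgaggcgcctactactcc
TGACG was found in 17 of 22 immediate early genes with a window (77.3%) and in 29% of all tested genes with one.

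Fosb, another subunit of AP-1, measured 0.82, 1.32 and 0.25 CPM in Ptc sham and 87.0, 84.0 and 26.8 CPM after 1 Gy, and in SmoA1 27.1, 45.0 and 13.7 CPM after sham and 84.5, 101 and 66.8 CPM after 1 Gy. Irradiated libraries were separate and higher in both models. Fosb rose in both, by 6.37 on the log2 scale in Ptc (DESeq2 adjusted p = 1.61e-14) and 1.54 in SmoA1 (edgeR adjusted p = 0.0041), with a difference of 4.81 that passed by DESeq2 (adjusted p = 0.00012) and not by edgeR (adjusted p = 0.61). Npas4, a factor induced by calcium in neurons, and the orphan nuclear receptor Nr4a3 were also called in both models and are named with their values known. Npas4 rose by 4.00 in Ptc and 0.89 in SmoA1, and Nr4a3 by 3.74 and 0.96. The fourth gene that rose in SmoA1 was Bdnf, a neurotrophin, at 1.48 (edgeR adjusted p = 0.0035), against 0.96 in Ptc (DESeq2 adjusted p = 0.82). Its Ptc value was -0.44 without 1 Gy replicate 1 and 2.25 without sham replicate 2.

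Gem, a small GTPase that blocks calcium channels, measured 0.61, 0.50 and 0.69 CPM in Ptc sham and 12.5, 28.1 and 9.10 CPM after 1 Gy, and in SmoA1 28.6, 10.3 and 24.7 CPM after sham and 33.2, 35.8 and 29.7 CPM after 1 Gy. The separation held in both models, and Gem rose in Ptc by DESeq2 (log2 4.79, adjusted p = 1.61e-14) while its 0.66 in SmoA1 did not pass. The remaining Ptc calls of the list included Atf3, Nr4a1, Nr4a2 and Junb, with log2 changes of 4.35, 3.14, 1.90 and 3.62 against 0.55, 0.63, 0.08 and 0.67 in SmoA1. Feedback inhibitors of MAP kinase signalling had a median log2 change of 0.95 in Ptc, 0.54 without 1 Gy replicate 2 and 0.58 without 1 Gy replicate 1, and of 0.08 in SmoA1, at median percentiles of 89.9 and 63.9. Of 18 tested genes, 2 rose in Ptc by DESeq2 (1.07% of all genes), Phlda1 (2.83) and the phosphatase Dusp2 (1.91), and 0 rose in SmoA1 by edgeR (1.98%). Irradiated libraries lay wholly above sham for 6 of the 18 in Ptc, against 7.19% of all genes, and for 1 in SmoA1, against 9.05%.

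Genes of NF-kappa-B and inflammation had the highest median rank of all 33 gene lists in Ptc, and in SmoA1 only markers of neutrophils, of which 4 were tested, ranked higher. Of 40 listed genes 35 were tested, 12 rose in Ptc by DESeq2 (1.07% of all genes), 7 rose in SmoA1 by edgeR (1.98%) and 3 did both. The median log2 change was 1.94 in Ptc and 0.68 in SmoA1, at median percentiles of 97.4 and 94.2. Irradiated libraries lay wholly above sham for 20 of the 35 in each model and for 11 in both, against 7.19% of all genes in Ptc, 9.05% in SmoA1 and 1.32% in both, and wholly below for 0 in either. All 35 changes were positive in SmoA1 and 33 in Ptc. In Ptc the median was 1.08, with 6 DESeq2 calls, without 1 Gy replicate 2, whose summed microglial marker level was 2850 CPM against 423 to 1536 CPM in the other irradiated Ptc libraries.

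Markers of neutrophils rose with the inflammatory list in SmoA1, but not in every irradiated Ptc library. Ptc 1 Gy replicate 1 had the lowest neutrophil sum in Ptc, while its inflammatory sum of 447.5 CPM lay above the sham range of 351.9 to 369.9 CPM. Their summed level over 12 genes lay between 123.6 and 145 CPM in SmoA1 sham and between 215 and 268 CPM after 1 Gy, and between 6.51 and 7.62 CPM in Ptc sham and 3.06 and 24.5 CPM after 1 Gy. Of the 4 markers tested in both models, 2 rose in SmoA1 by edgeR (1.98% of all genes) and 0 in Ptc by DESeq2 (1.07%). Cxcr2, a chemokine receptor, rose in SmoA1 by 1.41 on the log2 scale (edgeR adjusted p = 0.021). Mmp8, a collagenase of neutrophil granules, rose there by 1.73 (edgeR adjusted p = 0.015). The median of the 4 markers was 0.99 in SmoA1, at percentile 95.6, and 1.13 in Ptc, or 0.49 without 1 Gy replicate 2. Ly6g, a surface marker of neutrophils, was at 0 in all 3 Ptc sham libraries and in 2 of the 3 in SmoA1, and after 1 Gy at 0 in 1 library of each model. The part of neutrophils in the inflammatory changes was not tested.

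Il6, a cytokine of the acute response, had 1, 0 and 1 reads in Ptc sham and 64, 594 and 180 reads after 1 Gy (1.38, 18.1 and 4.92 CPM). In SmoA1 it had 1, 15 and 2 reads after sham and 24, 24 and 19 after 1 Gy. Irradiated libraries were separate in both models, and no fold is given for Ptc because its sham group held 2 reads. The change passed by DESeq2 in Ptc (adjusted p = 5.22e-07) and not by edgeR in SmoA1 (adjusted p = 0.054).

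The window before Il6 (RefSeq, GRCm38.p6, chr5:30012864-30013113, plus strand) is shown because NF-kappa-B binding just before this start is a textbook case. It has 1 match to the kappa-B site in capitals, 44 bases before the start, which overlaps no other motif searched.
Il6: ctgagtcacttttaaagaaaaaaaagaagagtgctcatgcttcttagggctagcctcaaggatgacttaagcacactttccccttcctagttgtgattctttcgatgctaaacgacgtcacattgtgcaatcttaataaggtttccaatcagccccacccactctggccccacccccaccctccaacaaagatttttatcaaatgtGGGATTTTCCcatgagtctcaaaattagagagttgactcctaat
The kappa-B site was found in 14 of 30 genes of the list with a window (46.7%) and in 5.68% of all tested genes with one. The AP-1 site TGANTCA was found in 9 of the 30 (30%) and in 5.68% of all.

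Among inhibitors and regulators of the pathway, Tnfaip3 (A20), which shuts off NF-kappa-B signalling, measured 5.74, 7.81 and 5.26 CPM in Ptc sham and 10.2, 20.2 and 15.3 CPM after 1 Gy, and in SmoA1 49.8, 46.2 and 50.7 CPM after sham and 110, 95.9 and 69.8 CPM after 1 Gy. Tnfaip3 was separate and higher in both models. The changes of 1.28 in Ptc (DESeq2 adjusted p = 0.043) and 0.91 in SmoA1 (edgeR adjusted p = 0.015) were close, and their difference was 0.36 (SE 0.40, edgeR adjusted p = 0.87). Bcl3, a nuclear partner of NF-kappa-B subunits, rose by 2.53 and 1.18, with a difference of 1.32 (edgeR adjusted p = 0.73). Tnfaip3, Bcl3 and Selp were chosen after their values were seen, as the members called in both models.

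The adhesion molecules of activated endothelium had positive changes in both models. Selp (P-selectin) measured 0.37, 0.19 and 0.33 CPM in Ptc sham and 0.34, 6.89 and 2.27 CPM after 1 Gy, and in SmoA1 12.1, 16.7 and 12.3 CPM after sham and 48.3, 48.6 and 40.1 CPM after 1 Gy. The SmoA1 groups were separate and the Ptc groups overlapped. Selp rose in SmoA1 by 1.72 (edgeR adjusted p = 0.0035) and in Ptc by 3.39 (DESeq2 adjusted p = 0.043). Sele (E-selectin) rose in SmoA1 by 2.00 and Vcam1 by 0.78, with Ptc changes of 2.65 and 1.64 that did not pass by DESeq2 (adjusted p = 0.055 and 0.092). Icam1 rose in Ptc by 2.82 and had 1.11 in SmoA1 (edgeR adjusted p = 0.058). Markers of endothelial cells and pericytes had a median log2 change of 1.34 in Ptc, 0.09 without 1 Gy replicate 2, and 0.15 in SmoA1.

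Several cytokines rose in Ptc by DESeq2, though by edgeR they passed in neither model. Il1a rose by 3.45 by DESeq2, Il1b by 4.09, Lif by 4.4, and the chemokines Cxcl1 by 3.99 and Ccl2 by 3.53, while their SmoA1 changes lay between 0.49 and 1.28 and did not pass. Of the list, Il1a and Il6 differed between models by DESeq2, both higher in Ptc (0.153% of all genes), and 0 genes by edgeR (0.00612%). At an unadjusted interaction p under 0.05 by edgeR, 10 were higher in Ptc (3.25% of all genes) and 0 lower (3.61%). The signalling genes Tnfaip2 and Traf1 rose in SmoA1 by 0.88 and 1.04 and had 1.81 and -0.45 in Ptc, where Traf1 had 0.32 without sham replicate 2.

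Interferon response genes were called in SmoA1. Of 31 tested genes, 4 rose in SmoA1 by edgeR (1.98% of all genes), the antiviral genes Oas3 (log2 2.14), Mx1 (1.42), Zbp1 (1.13) and Gbp2 (1.07), and 0 rose in Ptc by DESeq2 (1.07%). Irradiated libraries lay wholly above sham for 16 of the 31 in SmoA1, against 9.05% of all genes, and for 0 in Ptc, against 7.19%. Oas3 measured 19.6, 14.1 and 5.48 CPM in SmoA1 sham and 76.95, 48.6 and 47.5 CPM after 1 Gy, but 0.40, 0.35 and 0.23 CPM in Ptc sham and 0.22, 0.34 and 0.66 CPM after 1 Gy. It was the only member with an unadjusted interaction p under 0.05 towards SmoA1 (p = 0.027; edgeR adjusted p = 0.70). The median percentiles of the list were 73 in Ptc and 87.5 in SmoA1, and the median log2 changes 0.32 and 0.41. The Ptc median was -0.02 without 1 Gy replicate 2. It was 0.72 without 1 Gy replicate 1, where 28 of the 31 were positive and 2 rose by DESeq2, and 0.47 without sham replicate 2. Leaving out 1 Gy replicate 1, or sham replicate 2, thus put the Ptc median above that of SmoA1.

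Genes of adhesion, matrix and migration included calls of both kinds. Of 30 tested genes, 5 rose in Ptc by DESeq2 (1.07% of all genes), and 3 rose and 1 fell in SmoA1 by edgeR (1.98% and 0.192%). The median log2 change was 0.93 in Ptc and 0.17 in SmoA1, but without Ptc 1 Gy replicate 2 it was 0.25 in Ptc with 0 DESeq2 calls. Cd44, a hyaluronan receptor, and Plaur, the urokinase receptor, rose in both models, by 2.53 and 3.41 in Ptc and 0.86 and 1.13 in SmoA1. The integrin subunit Itga5 rose in Ptc by DESeq2 by 2.16, Spp1 (osteopontin) by 2.74 and the protease inhibitor Timp1 by 2.1, while Itga5 had -0.13 in SmoA1. Cdh1 (E-cadherin) rose in SmoA1 by 1.51 from 19.6, 19.3 and 19.2 CPM to 69.4, 48.6 and 49.0 CPM. In Ptc it had -3.34 (DESeq2 adjusted p = 0.094), or -2.15 without sham replicate 2. Its Ptc reads were 17, 589 and 224 after sham and 12, 35 and 16 after 1 Gy, so the groups overlapped through sham replicate 1. Sparc, a matrix protein, fell in SmoA1 by 0.97 and had 0.99 in Ptc, or -0.21 without 1 Gy replicate 2. Of these genes Cd44, Plaur and Timp1 were chosen after their values were seen.

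**Figure D4:**
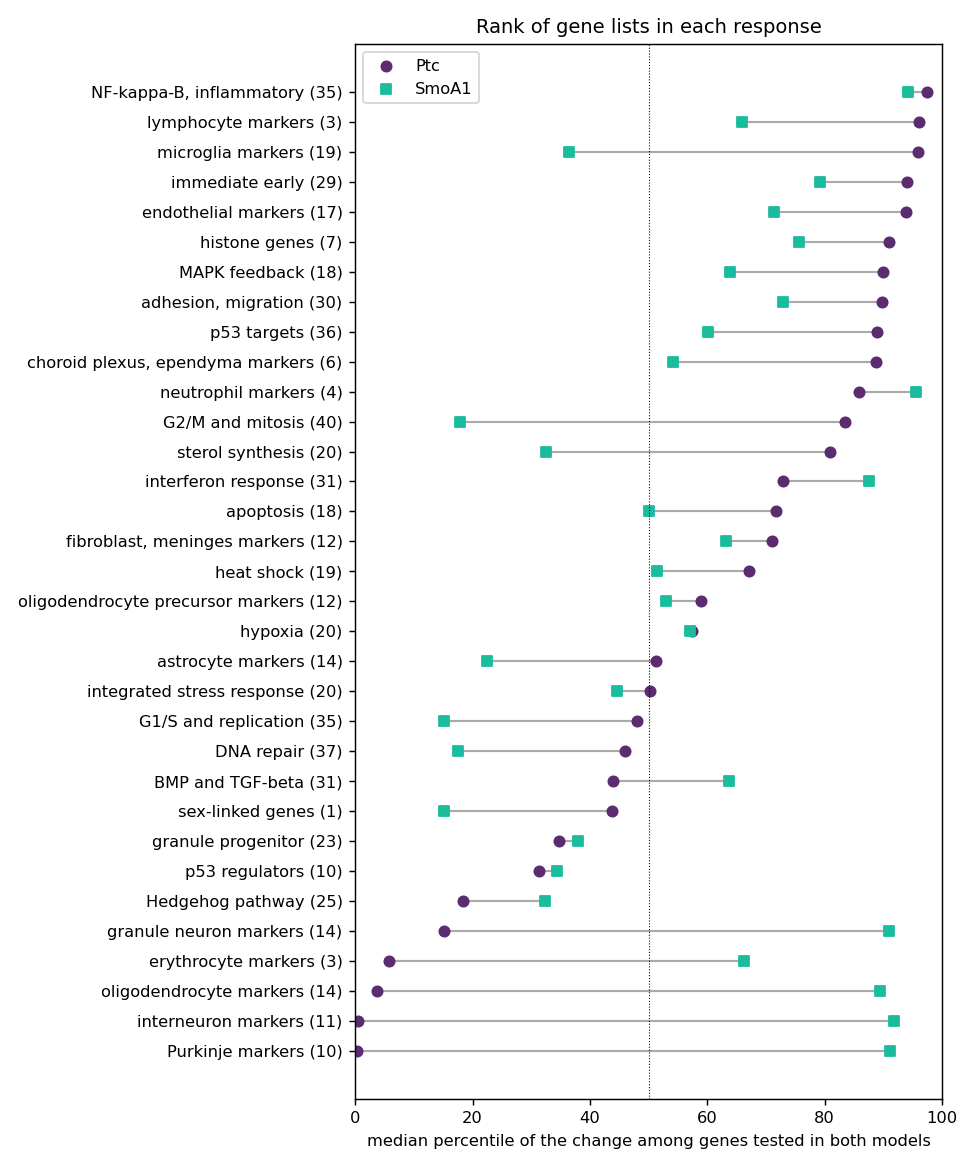
Median percentile of the change after 1 Gy over the tested members of each gene list (number in brackets) in Ptc (circles) and SmoA1 (squares) for all 33 lists, ordered by the value in Ptc, among the 16327 genes tested in both. The NF-kappa-B list lies at 97.4 and 94.2, the p53 targets at 89.0 and 60.2, and the Purkinje markers at 0.364 and 91.2.

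Proliferation genes went apart between the models, and the Ptc side rested on 1 library. All 40 genes of G2/M and mitosis were positive in Ptc, with a median log2 change of 0.59, and 38 of them were negative in SmoA1, with a median of -0.26. No gene of the list passed in either model, with 0 calls by DESeq2 in Ptc, 0 by edgeR in SmoA1 and 0 interaction p-values under 0.05 unadjusted. Irradiated libraries lay wholly below sham for 12 of the 40 in SmoA1, against 8.99% of all genes, and for 0 in Ptc, against 6.05%. Without Ptc sham replicate 2 the Ptc median was 0.05 with 21 of 40 positive, and without both Ptc libraries numbered 2 it was -0.14 with 13 positive. Ube2c, an enzyme of mitotic exit, shows it, at 99.9, 7.94 and 84.2 CPM in Ptc sham and 82.7, 159 and 230 CPM after 1 Gy.

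Genes of the G1/S transition and of DNA replication were lower after 1 Gy in SmoA1, with a median of -0.29 over 35 tested genes, and irradiated libraries lay wholly below sham for 12 of them, against 8.99% of all genes. The helicase subunit Mcm5 fell in SmoA1 by 0.76 (edgeR adjusted p = 0.015) and the chromatin assembly factor Chaf1a by 1.08 (edgeR adjusted p = 0.013). Chaf1a measured 60.3, 79.6 and 101 CPM in SmoA1 sham and 30.2, 46.0 and 37.1 CPM after 1 Gy. In Ptc the G1/S median was -0.02, and -0.53 with 0 of 35 positive once sham replicate 2 was left out, but 0.46 without sham replicate 1. Of 37 DNA repair genes, 10 lay wholly below sham in SmoA1, against 8.99% of all genes, and 1 in Ptc, against 6.05%. Their median was -0.27 in SmoA1 and -0.05 in Ptc, where it was -0.35 with 3 positive without sham replicate 2 and 0.30 without sham replicate 1. Ung, which removes uracil from DNA, fell in SmoA1 by 1.14. The checkpoint kinase Chek2 fell in SmoA1 by 0.77 and had 0.51 in Ptc, but 0.0032 without sham replicate 2.

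Of 25 Hedgehog genes tested, 0 passed by edgeR in SmoA1 and 0 by DESeq2 in Ptc, and 4 had an unadjusted interaction p under 0.05, all lower in Ptc (3.61% of all genes). Their list median was -0.46 in Ptc, -0.79 without sham replicate 2 and -0.15 without sham replicate 1, and -0.14 in SmoA1. Ptch1 measured 195, 186 and 197 CPM in Ptc sham and 123, 156 and 121 CPM after 1 Gy, and in SmoA1 231, 215 and 247 CPM after sham and 165, 243 and 217 CPM after 1 Gy. The Ptc groups were separate and the SmoA1 groups overlapped, but the difference of -0.39 (SE 0.26) did not pass (edgeR adjusted p = 0.78). Gli1 had log2 changes of -0.33 in Ptc and -0.42 in SmoA1, and Smo 0.27 and -0.10, and without Ptc sham replicate 2 the Ptc values were -0.80 and -0.17. The 4 genes lower in Ptc, Shh, Hhatl, Pax2 and Cdon, were all highest in Ptc sham replicate 2, with Shh at 4.27 CPM there against 0.21 and 1.04 CPM in the other sham libraries. Sox11, a factor of neuronal progenitors, fell in SmoA1 by 0.60 (edgeR adjusted p = 0.016) and had 0.25 in Ptc, but -0.29 without sham replicate 2.

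**Figure D5:**
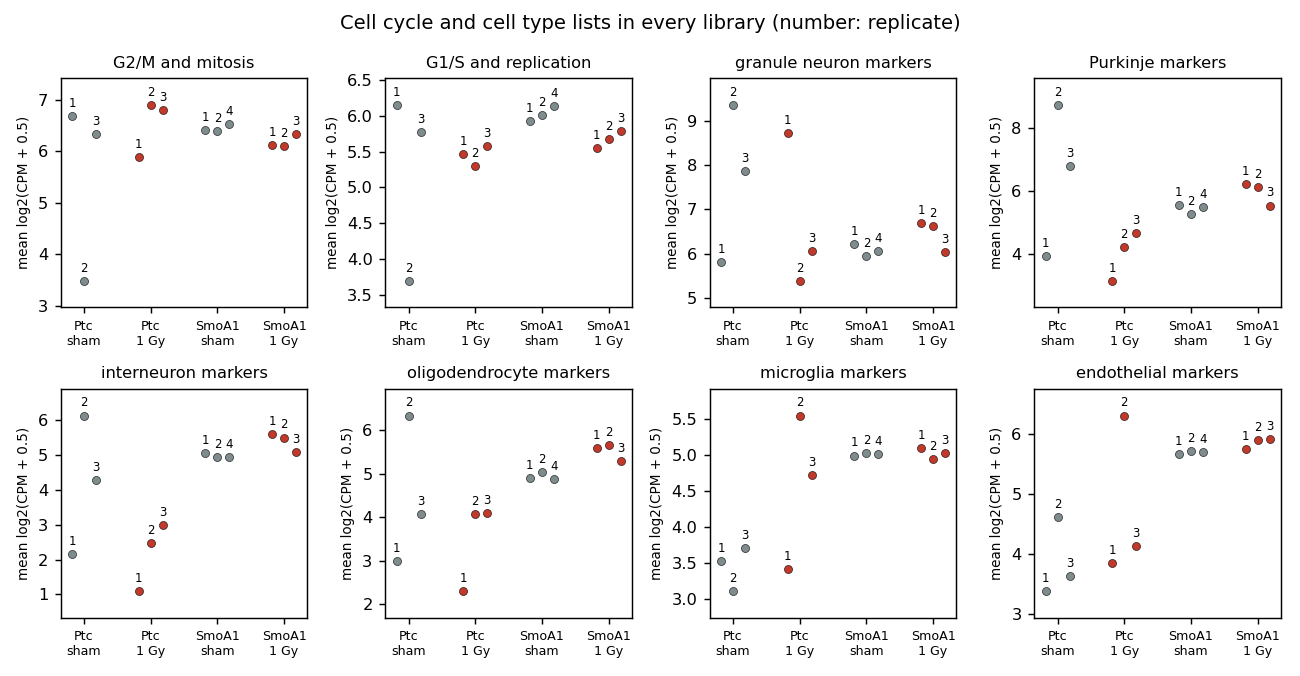
Mean log2(CPM + 0.5) of 8 gene lists in every library, grey after sham and red after 1 Gy, with the replicate number above each point. Ptc sham replicate 2 is lowest in both cell cycle lists (3.49 and 3.70) and highest in the 4 neuronal and oligodendrocyte lists, while SmoA1 libraries differ little.

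Neuronal markers were lower in Ptc relative to SmoA1 for 6 of 10 tested Purkinje genes and 8 of 11 interneuron genes at an unadjusted interaction p under 0.05 (3.61% of all genes), with 0 edgeR calls, and their Ptc levels differed widely between the sham libraries. Fewer cells of a type and less RNA per cell cannot be told apart in such bulk samples. All 10 tested Purkinje markers were negative in Ptc and positive in SmoA1, with medians of -3.78 and 0.53. Of these, 5 fell in Ptc by DESeq2 (0.557% of all genes), namely Calb1, Car8, Rgs8, Slc1a6 and Ppp1r17. In SmoA1, 1 rose by edgeR (1.98% of all genes), Calb1 (0.76, adjusted p = 0.038). Calb1, a calcium-binding protein that marks Purkinje cells, measured 16.6, 995 and 234 CPM in Ptc sham and 30.4, 14.1 and 40.01 CPM after 1 Gy, and in SmoA1 57.3, 52.7 and 42.5 CPM after sham and 98.1, 85.6 and 74.3 CPM after 1 Gy. The Ptc groups overlapped through sham replicate 1, and the SmoA1 groups were separate. Without Ptc sham replicate 2 the median of the 10 markers was -2.01 in Ptc, with 0 positive and 0 called by DESeq2.

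Markers of inhibitory interneurons had medians of -3.51 in Ptc and 0.56 in SmoA1 over 11 genes, and -2.05 in Ptc without sham replicate 2. Gad1, which makes GABA, rose in SmoA1 by 1.14, Slc6a5, the glycine transporter, rose in SmoA1 by 1.75, and Gad2 fell in Ptc by DESeq2 by 4.24, a call that was lost without sham replicate 2. Markers of oligodendrocytes had -1.45 and 0.47 over 14 genes, but 0.03 in Ptc without sham replicate 2. Markers of mature granule neurons had -0.56 and 0.52, but 0.19 in Ptc without it and -2.68 without 1 Gy replicate 1, which was high in them. In SmoA1, irradiated replicates 1 and 2 lay above sham in the mean of these 4 lists, and replicate 3 lay within the sham range for the granule neuron and Purkinje lists.

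By the named gene rule, the genes with the smallest interaction p towards lower levels in Ptc were Pcdha12, Hecw2, Slc47a1, Pkp3, Epha10, Slc5a1, Slc26a7 and Lhx5, all with an edgeR adjusted p of 0.70. Hecw2, a ubiquitin ligase, measured 69.1, 80.9 and 60.4 CPM in Ptc sham and 42.7, 41.1 and 41.5 CPM after 1 Gy, and in SmoA1 131, 121 and 137 CPM after sham and 168, 152 and 138 CPM after 1 Gy. It was separate in opposite directions, with a difference of -0.99 (SE 0.22, DESeq2 adjusted p = 0.025). Slc5a1, a sodium and glucose transporter, measured 6.03, 5.14 and 0 CPM in SmoA1 sham and 63.4, 51.1 and 22.3 CPM after 1 Gy (log2 3.57, edgeR adjusted p = 0.0015), and 0.16, 10.1 and 2.77 CPM in Ptc sham and 0.02, 0.18 and 0.49 CPM after 1 Gy. For 6 of the 8, all but Hecw2 and Pcdha12, the highest Ptc value was that of sham replicate 2 and the next that of sham replicate 3. Pcdha12 shares exons with the other genes of its protocadherin cluster, so its counts are uncertain.

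Towards higher levels in Ptc the rule named Tubb2a, Cd14, Apold1 and Gdpd3 beside Cdkn1a, Fos, Gem and Fosb. Tubb2a, a neuronal beta-tubulin, measured 125, 131 and 124 CPM in Ptc sham and 296, 258 and 213 CPM after 1 Gy, and in SmoA1 27.1, 33.4 and 32.9 CPM after sham and 19.6, 17.9 and 25.3 CPM after 1 Gy. Like Cdkn1a it was separate in opposite directions, and the difference of 1.58 passed by DESeq2 (adjusted p = 0.014) and not by edgeR (adjusted p = 0.43). Gdpd3, a lysophospholipase D, was also separate in opposite directions, from at most 4.01 to at least 9.73 CPM in Ptc and from at least 28.3 to at most 27.2 CPM in SmoA1. Cd14, a co-receptor for lipopolysaccharide on myeloid cells, measured 1.17, 1.94 and 1.71 CPM in Ptc sham and 8.60, 165 and 90.7 CPM after 1 Gy, and had -0.11 in SmoA1. Microglial and macrophage markers had medians of 1.64 in Ptc and -0.11 in SmoA1 over 19 genes, and their part in the values of Cd14 was not tested.

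Genes called in SmoA1 that went most against their direction in Ptc were of 2 kinds. Those that rose in SmoA1 included Scn4b, a sodium channel subunit, Camk2a, a kinase of excitatory synapses, Nell1, Slc6a12 and Slc6a5, with SmoA1 log2 changes between 0.91 and 2.08 and Ptc changes between -4.64 and -4.31. In Ptc sham replicate 2, Camk2a measured 117 CPM against 1.52 and 24.9 CPM in the other sham libraries. Those that fell in SmoA1 included Mymx, Sparc, Tdrd6, Chek2 and Nkain3, with SmoA1 changes between -2.05 and -0.77 and Ptc changes between 0.35 and 1.3, of which none passed in Ptc by DESeq2 or edgeR. Without sham replicate 2 Nkain3 had -0.0608 in Ptc. A further 79 genes called in SmoA1 could not be compared, because they did not pass the count filter in Ptc.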

How the data were processed

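Raw read counts were deposited as whole numbers for each gene, in 1 unstranded and 2 stranded columns, as STAR writes them. The authors' aligner is not stated by the labels. The submitters' processing notes name mm10 and Cell Ranger 5.0.1, without saying for which step, and the labels' protocols name RNeasy extraction of total RNA and a ribodepletion step. The 24 SmoA1 files are 4 parts for each of 6 sample numbers, which the titles call biological replicates. Their counts differed by no more than sampling noise (variance to mean ratio from 0.858 to 0.925 over genes with at least 40 counts), so they were summed and counted as 1 library. The 6 Ptc files are 1 library each. The 24 other files of the series are not used here. The unstranded column was used.

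Genes were kept by filterByExpr (minimum count 10) within each model and scaled by TMM within each model. edgeR 4.0.16 (R 4.3.3) quasi-likelihood tests gave the change after 1 Gy in each model and, over 12 libraries and genes kept in both models, the Ptc change minus the SmoA1 change. P-values were adjusted over all genes tested, with calls at an adjusted p under 0.05. Log2 fold changes carry edgeR's prior count. Each standard error (SE) was back-computed as the absolute log2 change divided by the square root of the F statistic of its quasi-likelihood test. CPM values are scaled within each model and the list means use log2(CPM + 0.5). Percentiles rank each change among the 16327 genes tested in both. The methods were also run on simulated counts with known changes, drawn without outlying libraries such as Ptc sham replicate 2, and no result above rests on that run. Alternatives used DESeq2 1.42.0 and limma 3.58.1 (voom), and figures matplotlib 3.10.9 in Python 3.11.15. Gene names and positions are those of the GRCm38 annotation, matching 53274 of 53379 identifiers, and promoter windows are from RefSeq (GRCm38.p6), where 11752 tested genes had one.

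The groups, gene lists and named genes were chosen with earlier results of these data known. The rule for named genes took the 8 smallest interaction p-values in each direction among protein-coding genes averaging at least 1 CPM in each model, genes called in both models by edgeR (none), the 6 risen and 6 fallen SmoA1 calls that went most against their direction in Ptc, 3 members of each list by smallest interaction p, and Ptch1, Smo, Gli1, Trp53, Cdkn1a, Mdm2 and Eda2r. Not all 122 genes of the rule are described. Named outside it, after their values were seen, were Npas4, Nr4a1, Nr4a2, Nr4a3, Atf3, Junb, Bdnf, Tnfaip2, Tnfaip3, Traf1, Bcl3, Selp, Sele, Vcam1, Icam1, Il1b, Cxcl1, Ccl2, Mx1, Zbp1, Gbp2, Cd44, Plaur, Timp1, Mcm5, Ung, Car8, Ppp1r17, Gad1, Gad2, Cdon, Plk2, Pmaip1, Gdf15, Phlda3, Ccng1, Aen, Ddb2, Trp73, Mmp8 and Ly6g.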

Additional observations from a re-analysis of the deposited data

Results flagged for a closer look

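The change of Cdkn1a after 1 Gy differed between the models by 2.98 on the log2 scale by the edgeR interaction test (SE 0.32, adjusted p = 0.020). It was the only gene of 16327 with such a call, and 16 of the 26 alternatives in which it was tested called it. The Ptc libraries were higher after 1 Gy in 3 of 3 and the SmoA1 libraries lower in 3 of 3, and the SmoA1 change alone did not pass (edgeR adjusted p = 0.40).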

How the results depend on the processing

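The count of genes whose change differed between models was 1 and became 59 by DESeq2, 4 without both Ptc libraries numbered 2, 0 with the replicate block, 0 at an adjusted p under 0.01 and 0 without the 3 libraries high in Y-linked genes. It ranged from 0 to 60 when each library was left out, with 60 without Ptc sham replicate 1. The SmoA1 count was 363 and became 225 by DESeq2, 969 without the low-count filter, 614 at a mean of at least 1 CPM, 174 on the larger strand column, 551 with the replicate block, 128 at an adjusted p under 0.01 and 240 without the Y-high libraries, and it ranged from 109 (without 1 Gy replicate 2) to 445 by library left out. The Ptc count of 0 became 318 by DESeq2 and 1 without the filter, and stayed at 0 without each library, while the DESeq2 count of 318 ranged from 104 to 743. The share of SmoA1 calls with the same sign in Ptc was 56.0% and became 69.3% without both Ptc libraries numbered 2, 46.5% with the replicate block and 69.5% without the Y-high libraries, and it ranged from 46.2% to 75.4% by library left out. The correlation of the changes became 0.26 without both Ptc libraries numbered 2 and ranged from -0.0371 to 0.31 by library left out. The cause of these shifts was not tested.

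Whether sample numbers shared within a model pair the libraries could not be decided from so few libraries. The correlations of same-numbered deviations were -0.00116, 0.0941 and 0.19 in Ptc and 0.0757 and 0.0315 in SmoA1. The same number gave the highest correlation for numbers 2 and 3 in Ptc and 1 in SmoA1, but not for 1 in Ptc or 2 in SmoA1. With the replicate block the adjusted p of Cdkn1a was 0.96.

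Over the genes named in the text, 2701 of the recomputed differences between models kept direction and side of the threshold, 48 passed newly, 10 no longer passed and 33 changed sign. The sign changes were in genes with small differences. Gli1 became -0.0897 with Ptc thinned to the SmoA1 depth, -0.92 without both Ptc libraries numbered 2, -0.37 without Ptc sham replicate 2, -0.48 without Ptc 1 Gy replicate 2 and -0.14 without SmoA1 1 Gy replicate 1, with a highest value of 0.61 by library left out. Smo became -0.37 and -0.0637 (highest 0.92 by library left out), and Bdnf 1.09 and 0.77 (lowest -1.92), without both Ptc libraries numbered 2 and without Ptc sham replicate 2. Trp53 became -0.40 and -0.37 in those settings, -0.0427 without Ptc 1 Gy replicate 3, -0.0989 when SmoA1 sham replicate 1 was left out and -0.0253 without SmoA1 1 Gy replicate 2, with a highest value of 0.51 by library left out. Ung became -0.27 without Ptc sham replicate 2, -0.0856 without Ptc 1 Gy replicate 1 and -0.20 without the Y-high libraries, with a highest value of 0.63 by library left out. Sele became -0.0589 without Ptc 1 Gy replicate 3 and -0.15 without SmoA1 sham replicate 2. Gbp2 became -0.11 with voom, -0.14 without both Ptc libraries numbered 2, -0.23 without Ptc sham replicate 1, -0.57 without Ptc 1 Gy replicate 2, -0.26 leaving out SmoA1 sham replicate 1 and -0.0512 leaving out SmoA1 1 Gy replicate 2, with a highest value of 0.52 by library left out. Cxcr2 became -0.54 with voom and -0.11 without Ptc 1 Gy replicate 3, with a highest value of 1.33 by library left out. Mmp8 became -1.77 with voom and -1.11 with the replicate block, and by library left out it ranged from -1.09 (without Ptc 1 Gy replicate 2) to 0.73, with -0.14 for Ptc sham replicate 3, -0.26 for SmoA1 sham replicate 4 and -0.0369 for SmoA1 1 Gy replicate 3.

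Leaving out the Y-high libraries, DESeq2 without each Ptc library, a robust prior and the limit to genes under 10 CPM per kb in Ptc were chosen after seeing the data. The planned limit to genes dense in SmoA1 was not run, because the median density that sets it was 0, and the share of Ptc calls with the same sign in SmoA1 has no edgeR value because Ptc had 0 calls. The SmoA1 depth, a ratio of medians of 57.7 below Ptc, limits all genes with few counts there.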
